A study of Mus musculus with 22 samples.

Results

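The growth hormone receptor and IGF axis was followed in mouse aorta through 10 genes: the receptors Ghr and Igf1r, the ligands Igf1 and Igf2, and the binding proteins Igfbp2 to Igfbp7. Its members were taken as every probe set whose single gene symbol in the array annotation was 1 of these 10, which gave 29 of 45101 probe sets and 10 of 18194 genes with a symbol of their own. A probe set was tested when it exceeded a log2 value of 4 on 3 or more arrays, which 25 of the 29 members did, among 20410 probe sets in all. The 4 that did not were 1 probe set each of Igf2, Igf1r, Igfbp3 and Igfbp7. All 10 genes kept at least 1 tested probe set.

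Growth hormone binds its receptor, Ghr, on the cell surface, and the receptor signals through the kinase Jak2 to Stat5 transcription factors. One well known target of that signal is Igf1, which acts on growth, survival and migration of cells, vascular smooth muscle among them, through the receptor kinase Igf1r. IGF binding proteins hold Igf1 and Igf2 outside the cell, prolong their life there and regulate their access to the receptor, and proteases release the ligands again. The mouse Ghr gene also gives a soluble growth hormone binding protein by alternative splicing, and the sources used here do not say which transcript forms each Ghr probe set reads.

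The animals were ovariectomised female C57BL/6 mice aged 2.5 to 4.5 months, of 3 genotypes: wild type (WT), knockout of estrogen receptor alpha (ERaKO) and knockout of estrogen receptor beta (ERbKO). A pellet of 17beta-estradiol (E2) or of placebo was carried for 7 to 8 days, so that every control had lost its ovaries and received a placebo pellet. There were 5 arrays for each treatment of WT, and 3 for each treatment of either knockout. Every array held 5 ug of RNA from 1 aorta, the WT mice were littermates of the knockouts, and the labels do not say of which line each was. The comparisons asked how E2 altered these genes and whether either receptor was needed for it. The 22 arrays limit how precise any value can be, and in a whole aorta fewer cells of a type cannot be told apart from less RNA per cell.

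Esr1, the gene of the alpha receptor, had a mean log2 value of 8.52 in WT placebo and 5.03 in ERaKO placebo (probe set 1460591_at), a difference of -3.49 ± 0.36 (SE; limma, Benjamini-Hochberg adjusted p = 1.35e-04). At a second Esr1 probe set, 1435663_at, the difference between these groups was -1.76 ± 0.34, without overlap but not called (limma, adjusted p = 0.478). The third, 1421244_at, was under the filter, with group means of 2.51 to 2.67. The Esr2 probe set stayed between 2.36 and 2.57 in the 6 group means, under the filter, so it checks nothing about the ERbKO label. Smooth muscle markers gave mean levels of 12.11 to 12.81 over the 6 groups, and skeletal muscle markers stayed at 3.06 to 3.22. White adipocyte markers averaged 8.73 in WT placebo and 8.09 in WT E2, and 9.16 and 8.03 in ERaKO. In ERbKO they averaged 8.56 with placebo and 8.16 with E2. Brown adipocyte markers averaged 11.48 and 10.64 in WT, 11.74 and 10.55 in ERaKO, and 10.78 and 10.66 in ERbKO. None of these fat markers was called in an E2 comparison by limma, and their part in the results below was not tested. One array stood apart: WT E2 replicate 1 had 14.93 for the hepatocyte gene Alb, 13.40 for Ttr and 12.10 for Apoa1. On 5 other arrays Alb lay between 4.62 and 8.84, and on the remaining 16 between 2.87 and 3.71. Of the 6 arrays with Alb over 4, 3 were WT E2, 2 ERaKO E2 and 1 ERaKO placebo. WT placebo and both ERbKO groups had 0, so in WT all such arrays were E2 arrays. Liver expresses Ghr, Igf1 and several binding proteins strongly, so results are also given without WT E2 replicate 1 where that array touches them.

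**Figure D1:**
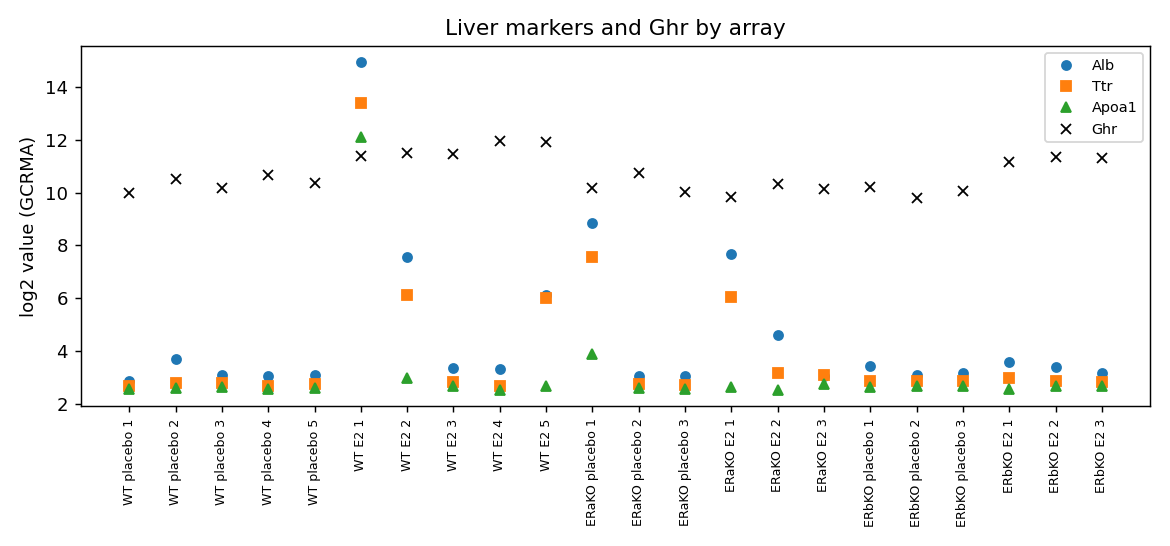
Log2 values (GCRMA, y axis) of the hepatocyte markers Alb, Ttr and Apoa1 and of Ghr (probe set 1417962_s_at) on each of the 22 arrays (x axis). WT E2 replicate 1 has 14.93 for Alb and 11.39 for this Ghr probe set, the lowest of the 5 WT E2 arrays. The other Ghr probe sets are not drawn. There that array had 10.37 (1451501_a_at) and 7.80 (1451871_a_at), inside the range of the other WT E2 arrays.

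The regions just before the start sites of Ghr, Igfbp5 and Igfbp6 are printed because these 3 genes had the smallest p-values among the members. Each run is the 250 bases upstream of a RefSeq start site, 5′ to 3′ on the strand of the gene, in build GRCm38.p6. Capitals mark the estrogen response element half-site GGTCA or its reverse complement TGACC. Ghr has 2 such start sites, at chr15:3583353-3583602 and chr15:3581843-3582092, both on the minus strand. The Igfbp5 window is chr1:72874866-72875115 on the minus strand, and that of Igfbp6 is chr15:102143936-102144185 on the plus strand.
Ghr start site 1: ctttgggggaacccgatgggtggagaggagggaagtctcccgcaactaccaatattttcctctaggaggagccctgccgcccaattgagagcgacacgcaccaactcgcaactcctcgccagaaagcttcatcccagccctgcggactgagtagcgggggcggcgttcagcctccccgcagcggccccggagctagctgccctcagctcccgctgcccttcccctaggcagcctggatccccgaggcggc
Ghr start site 2: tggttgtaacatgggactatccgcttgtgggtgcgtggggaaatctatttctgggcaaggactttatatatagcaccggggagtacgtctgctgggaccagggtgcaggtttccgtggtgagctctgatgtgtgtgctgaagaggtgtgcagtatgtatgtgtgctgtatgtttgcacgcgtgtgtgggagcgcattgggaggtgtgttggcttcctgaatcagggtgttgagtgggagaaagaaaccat
Igfbp5: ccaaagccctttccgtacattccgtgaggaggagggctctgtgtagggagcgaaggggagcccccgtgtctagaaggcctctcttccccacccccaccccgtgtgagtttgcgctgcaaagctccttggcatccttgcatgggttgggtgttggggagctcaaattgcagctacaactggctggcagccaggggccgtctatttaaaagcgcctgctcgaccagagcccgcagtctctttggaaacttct
Igfbp6: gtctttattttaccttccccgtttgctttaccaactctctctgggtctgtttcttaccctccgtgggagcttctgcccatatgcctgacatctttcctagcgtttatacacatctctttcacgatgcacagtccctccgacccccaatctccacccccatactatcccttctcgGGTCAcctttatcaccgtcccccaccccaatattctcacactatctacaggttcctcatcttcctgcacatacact
The half-site was found in the Igfbp6 window, 76 bases upstream, and not in the windows of Ghr or Igfbp5. Searched on both strands, it was present in 7 of 15 windows of the member genes and in 35.2% of 32851 windows of the same length over all RefSeq promoters. The full palindrome GGTCANNNTGACC, which contains the half-site, was in 0 of the 15 and in 0.0639% of all windows. These are matches of letters only, and estrogen receptors also bind far from start sites.

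Ghr rose with E2 in WT and in ERbKO aortas and did not pass the test in ERaKO. At the probe set with the highest mean, 1417962_s_at, the log2 values were 9.999, 10.50, 10.18, 10.68 and 10.34 in WT placebo and 11.39, 11.49, 11.44, 11.96 and 11.89 in WT E2. Each WT E2 array was above each WT placebo array. The change was 1.29 ± 0.17 (SE), 2.45-fold with a 95% interval from 1.92 to 3.14 (limma, adjusted p = 4.37e-04), and the gene stood at rank 15 of all tested probe sets by p. An exact permutation test of the same arrays, two-sided, gave p = 0.00794, the smallest that 5 against 5 allows. Without WT E2 replicate 1 the change was 1.36 ± 0.18 (limma, adjusted p = 9.62e-04). Without all 6 arrays with an Alb value over 4 it was 1.36 ± 0.24 and no longer called (adjusted p = 0.0647), with 16 arrays left in the fit.

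In ERaKO the 1417962_s_at values were 10.19, 10.75 and 10.02 with placebo and 9.85, 10.31 and 10.14 with E2. The groups overlapped, and the difference was -0.22 ± 0.22 (95% interval from -0.68 to 0.24; limma, adjusted p = 0.93). In ERbKO the placebo values were 10.20, 9.80 and 10.06 and the E2 values 11.16, 11.35 and 11.31. All 3 E2 arrays lay above all 3 placebo arrays, as they did in WT. The ERbKO change was 1.25 ± 0.22, 2.38-fold (interval from 1.73 to 3.28; limma, adjusted p = 0.0218), and the exact permutation test could give no p under 0.1 with 3 against 3. That call was lost when ERbKO placebo replicate 2 or 3 or any ERbKO E2 array was left out, with adjusted p up to 0.214 and changes of 1.14 to 1.31.

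**Figure D2:**
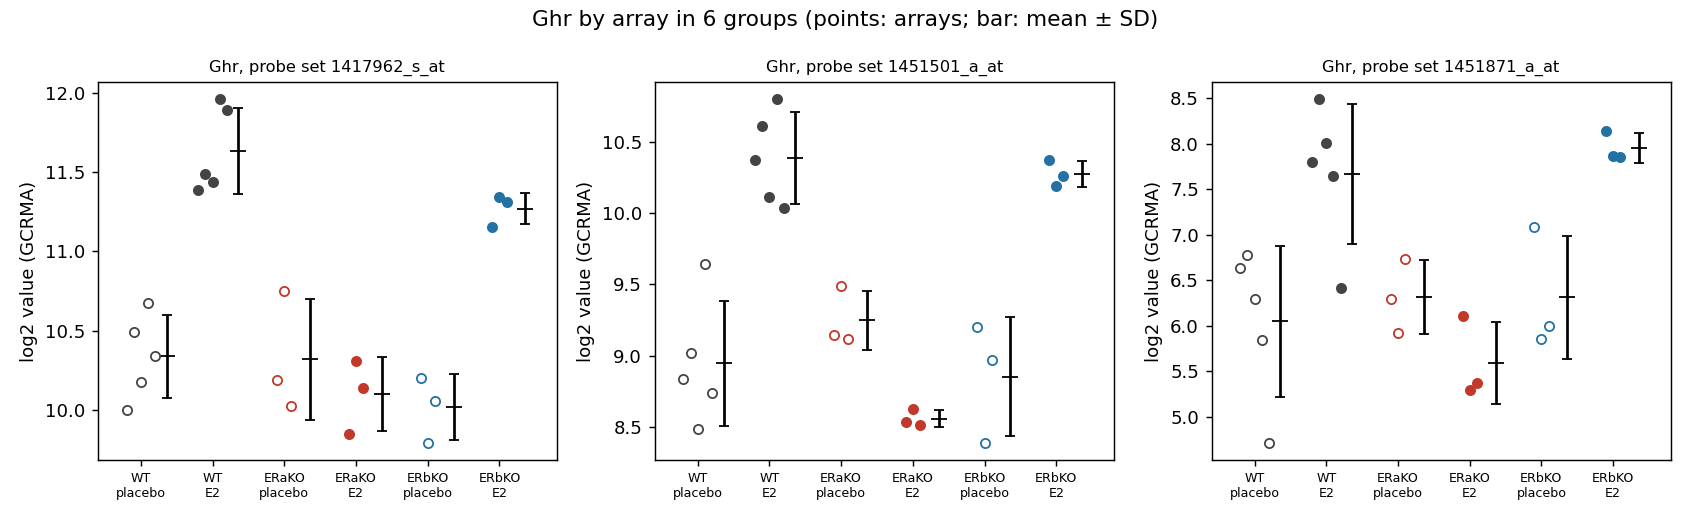
Log2 values (GCRMA, y axis, which does not start at 0) of the 3 Ghr probe sets on each array in the 6 groups (x axis). Points are arrays, open for placebo and filled for E2, and bars give the mean ± SD. The WT E2 and ERbKO E2 points of 1417962_s_at lie between 11.16 and 11.96, above all other arrays, which reach 10.75 at most.

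The second Ghr probe set, 1451501_a_at, gave 8.84, 9.02, 8.49, 9.64 and 8.74 in WT placebo and 10.37, 10.61, 10.11, 10.80 and 10.03 in WT E2. Again no WT E2 array overlapped the placebo arrays, and the change was 1.44 ± 0.20, 2.71-fold (limma, adjusted p = 8.67e-04), and 1.51 ± 0.30 without the 6 arrays with high Alb (adjusted p = 0.125). Without WT E2 replicate 1 alone the WT change was 1.44 ± 0.22 (limma, adjusted p = 0.00315). In ERbKO the values were 9.20, 8.39 and 8.97 with placebo and 10.37, 10.19 and 10.26 with E2. The ERbKO change was 1.42 ± 0.26, 2.68-fold (limma, adjusted p = 0.0303), and it lost its call without the same 5 arrays, with adjusted p up to 0.325. In ERaKO the order was the opposite: 9.14, 9.49 and 9.12 with placebo against 8.54, 8.62 and 8.52 with E2. The ERaKO arrays did not overlap, but the difference of -0.69 ± 0.26 did not pass (limma, unadjusted p = 0.0157, adjusted p = 0.661; 0.0533 with replicate numbers as a block).

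The third, 1451871_a_at, spread more. Its WT values were 6.63, 6.78, 6.30, 5.84 and 4.72 with placebo and 7.80, 8.49, 8.01, 7.65 and 6.42 with E2. Replicate 5 was the lowest in both WT groups, so that the groups overlapped although E2 was above placebo within each replicate number. The difference of 1.62 ± 0.39 did not pass without the block (limma, adjusted p = 0.089) and passed with it (adjusted p = 0.00157). It also passed without WT E2 replicate 5, at 1.93 (adjusted p = 0.0158). The other 21 removals of 1 array left it uncalled, with adjusted p up to 0.241. Without WT E2 replicate 1 it was 1.59 (limma, adjusted p = 0.205). The ERbKO values were 7.09, 5.85 and 5.99 against 8.15, 7.87 and 7.85, a difference of 1.64 ± 0.50 with the same split (limma, adjusted p = 0.784, and 0.0185 with the block). In ERaKO they were 6.30, 5.92 and 6.74 against 6.11, 5.29 and 5.37, a difference of -0.73 ± 0.50 (limma, adjusted p = 0.851). Over the 22 arrays the 3 Ghr probe sets correlated with r of 0.66 to 0.93, as values from the same RNA.

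The E2 effect on Ghr differed between ERaKO and WT when tested as an interaction. It was lower in ERaKO by 1.51 ± 0.28 log2 units at 1417962_s_at (limma, change of -1.51, adjusted p = 0.0423) and by 2.13 ± 0.33 at 1451501_a_at (change of -2.13, adjusted p = 0.00924). The first of these calls held only without WT placebo replicate 4, WT E2 replicate 1, ERaKO placebo replicate 3 or ERbKO placebo replicate 1. Leaving out any of the other 18 arrays ended it, with adjusted p up to 0.208. The second call ended only without ERaKO placebo replicate 2 (adjusted p = 0.0567). At 1451871_a_at the difference was -2.35 ± 0.63 (limma, adjusted p = 0.461, and 0.0114 with the block).

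Against ERbKO, the ERaKO effect was lower by 2.11 ± 0.37 at 1451501_a_at (change of -2.11; limma, adjusted p = 0.0338). That call was lost in 14 of the 22 removals of an array, with adjusted p up to 0.17, WT E2 replicate 1 among them (0.0576). It held without WT placebo replicate 3, 4 or 5, any of WT E2 replicates 2 to 5, or ERbKO placebo replicate 1. At 1417962_s_at the difference was -1.47 ± 0.31 (adjusted p = 0.195, and 0.0621 with the block). At 1451871_a_at it was -2.37 ± 0.70 (limma, adjusted p = 1, and 0.03 with the block). Between ERbKO and WT the effects differed by -0.04 (95% interval from -0.63 to 0.54) at 1417962_s_at and by -0.02 (interval from -0.71 to 0.67) at 1451501_a_at, both with an adjusted p of 1 in limma. Those intervals do not show that the effects are equal.

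By its mean, 1417962_s_at was ordered WT E2 (11.63 ± 0.27, SD), ERbKO E2 (11.27 ± 0.10), WT placebo (10.34 ± 0.26), ERaKO placebo (10.32 ± 0.38), ERaKO E2 (10.10 ± 0.23) and ERbKO placebo (10.02 ± 0.21). The ERbKO E2 arrays lay just below the WT E2 arrays without overlap, but that difference of -0.36 ± 0.20 did not pass (limma, adjusted p = 0.863). The 4 lower groups overlapped one another, so their order is within their spread. With E2, ERaKO was below WT by 1.53 ± 0.20 (change of -1.53; limma, adjusted p = 3.14e-04). At 1451501_a_at the same comparison gave -1.83 ± 0.23 (adjusted p = 3.14e-04), and at 1451871_a_at -2.08 ± 0.45 (adjusted p = 0.0568). The last passed without WT placebo replicate 5, WT E2 replicate 5, ERaKO E2 replicate 1 or ERbKO placebo replicate 1 (adjusted p from 0.00971 to 0.0497). In the other 18 removals it did not pass, with adjusted p up to 0.31 in limma, and 0.141 without WT E2 replicate 1. With placebo the ERaKO and WT levels of 1417962_s_at differed by -0.02 (95% interval from -0.43 to 0.39; limma, adjusted p = 0.993). These comparisons use the same arrays as the E2 comparisons and are not independent of them.

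Across the 22 arrays, the genes whose levels followed Ghr 1417962_s_at most closely among 10250 compared were Ano4 (Pearson r = 0.91), Mmd2 (r = 0.91) and Tiparp (r = 0.90), given as a description without a test. All 3 were also higher in WT E2 than in WT placebo, by 4.29, 4.44 and 1.56 log2 units. These rises come with the choice, since Ghr itself rose in WT E2 on the same arrays, and are no separate support.

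Igf1r, the tyrosine kinase receptor for Igf1 and Igf2, passed no test. Its probe set of highest mean, 1452982_at, gave 9.11, 8.53, 9.70, 8.57 and 9.53 in WT placebo and 9.09, 9.29, 9.20, 9.89 and 9.44 in WT E2. The groups overlapped, with a difference of 0.30 ± 0.24 (limma, adjusted p = 0.794). The ERaKO and ERbKO differences were 0.18 ± 0.31 and 0.23 ± 0.31, both overlapping. The other 3 tested Igf1r probe sets gave WT differences of -0.03, 0.08 and 0.14, and the 4 correlated with r of 0.26 to 0.63. Probe set 1452108_at exceeded the minimum on 1 array and was not tested.

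Igf1, the main ligand, had lower WT means with E2 at its probe sets of highest level, and no call. At 1437401_at the WT placebo values were 8.90, 8.68, 8.91, 8.42 and 9.36 and the WT E2 values 8.84, 7.84, 8.26, 8.01 and 7.69. The groups overlapped only through WT E2 replicate 1, the array with the high Alb value. The difference was -0.73 ± 0.29 (limma, unadjusted p = 0.0205, adjusted p = 0.518), and -0.91 without WT E2 replicate 1 (adjusted p = 0.427). At 1434413_at the WT difference was -0.69 ± 0.35 and without that array -0.89. At 1452014_a_at WT E2 replicate 1 had 7.60 against 5.35 to 5.69 on the other 4 WT E2 arrays, and its removal took the difference from -0.08 to -0.49. The fourth, 1419519_at, gave -0.11, and -0.28 without the array. None of these Igf1 differences was called, with or without that array.

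In the knockouts the E2 differences of 1437401_at were -0.23 ± 0.37 for ERaKO and -0.56 ± 0.37 for ERbKO. ERbKO E2 arrays were wide apart, at 7.26, 8.62 and 9.09, against 8.89, 9.06 and 8.69 with placebo. ERaKO placebo arrays had lower Igf1 means than WT placebo arrays, by 0.84 ± 0.40 at 1434413_at (change of -0.84) and 0.77 ± 0.34 at 1419519_at (change of -0.77), neither called (limma, adjusted p = 0.955). With E2, 1419519_at differed by -1.03 ± 0.34 between ERaKO and WT (adjusted p = 0.385). The 4 Igf1 probe sets correlated with r of 0.61 to 0.88 over the 22 arrays.

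Igf2, the second ligand, had 1 tested probe set, 1448152_at, with values from 4.30 to 6.06 over all arrays. Its E2 differences were -0.35 ± 0.22 in WT, -0.26 ± 0.29 in ERaKO and -0.44 ± 0.29 in ERbKO, none of them called (limma, adjusted p from 0.718 to 1). The ERbKO E2 values of 4.75, 5.107 and 4.66 lay below the placebo values of 5.110, 5.28 and 5.44, barely so for the closest pair. The other Igf2 probe set, 1415931_at, never exceeded 3.05.

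At their probe sets of highest mean, Igfbp5 had lower and Igfbp6 higher means with E2 in WT and ERbKO, with small differences in ERaKO. None of these differences was called without the block. Igfbp5, a binding protein that also attaches to extracellular matrix, had WT placebo values of 11.25, 11.28, 10.92, 10.57 and 10.82 and WT E2 values of 10.47, 10.32, 9.52, 9.71 and 10.05 at 1452114_s_at. No WT E2 array reached the lowest placebo array. The difference was -0.95 ± 0.23 (limma, adjusted p = 0.0911), and with replicate numbers as a block it passed (adjusted p = 0.016). Without WT E2 replicate 1 it was -1.07 (adjusted p = 0.0854). In ERbKO the values were 11.24, 11.01 and 10.58 with placebo and 10.42, 9.61 and 9.81 with E2. These did not overlap either, and the difference was -0.99 ± 0.30 (limma, adjusted p = 0.741, and 0.134 with the block).

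In ERaKO the Igfbp5 values were 10.65, 10.35 and 11.15 against 11.10, 10.35 and 10.56, a difference of -0.05 ± 0.30. The interaction of ERaKO with WT was 0.91 ± 0.37 (limma, unadjusted p = 0.0254, adjusted p = 1). The other Igfbp5 probe set, 1422313_a_at, did not follow that pattern: its E2 differences were -0.25 ± 0.28 in WT, -0.46 ± 0.37 in ERaKO and 0.02 ± 0.37 in ERbKO, none called. The pair correlated at r = 0.56. The genes most like 1452114_s_at over the 22 arrays were Pm20d2 (r = 0.80), Ttc7b (r = 0.79) and Naa30 (r = 0.78), none of them called in WT.

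Igfbp6, which binds Igf2 in preference to Igf1, was at 7.86, 8.09, 9.28, 7.50 and 7.63 in WT placebo and at 9.37, 9.43, 9.65, 9.24 and 9.04 in WT E2 (1417933_at). WT placebo replicate 3 alone reached into the E2 range. The difference was 1.28 ± 0.31 (limma, adjusted p = 0.0911, and 0.0549 with the block). Without WT placebo replicate 3 it was 1.58 and passed (adjusted p = 0.00499), and no other removal of 1 array made the call. Without WT E2 replicate 1 it was 1.27 (limma, adjusted p = 0.203). The adjusted p rose most, to 0.258, without WT placebo replicate 4. In ERbKO the placebo values of 7.87, 8.86 and 7.75 lay below the E2 values of 9.41, 9.02 and 10.05, a difference of 1.33 ± 0.40 (limma, adjusted p = 0.741). In ERaKO the values were 7.59, 8.00 and 8.60 against 8.31, 8.37 and 7.86, a difference of 0.12 ± 0.40. The interaction of ERaKO with WT was -1.15 ± 0.50 (unadjusted p = 0.0325, adjusted p = 1), and with E2 every ERaKO array was below every WT array (difference of -1.16 ± 0.35; adjusted p = 0.327). Igfbp6 was followed most closely by Akr1c14 (r = 0.88), Frzb (r = 0.83) and Aff4 (r = 0.82), again as a description.

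**Figure D3:**
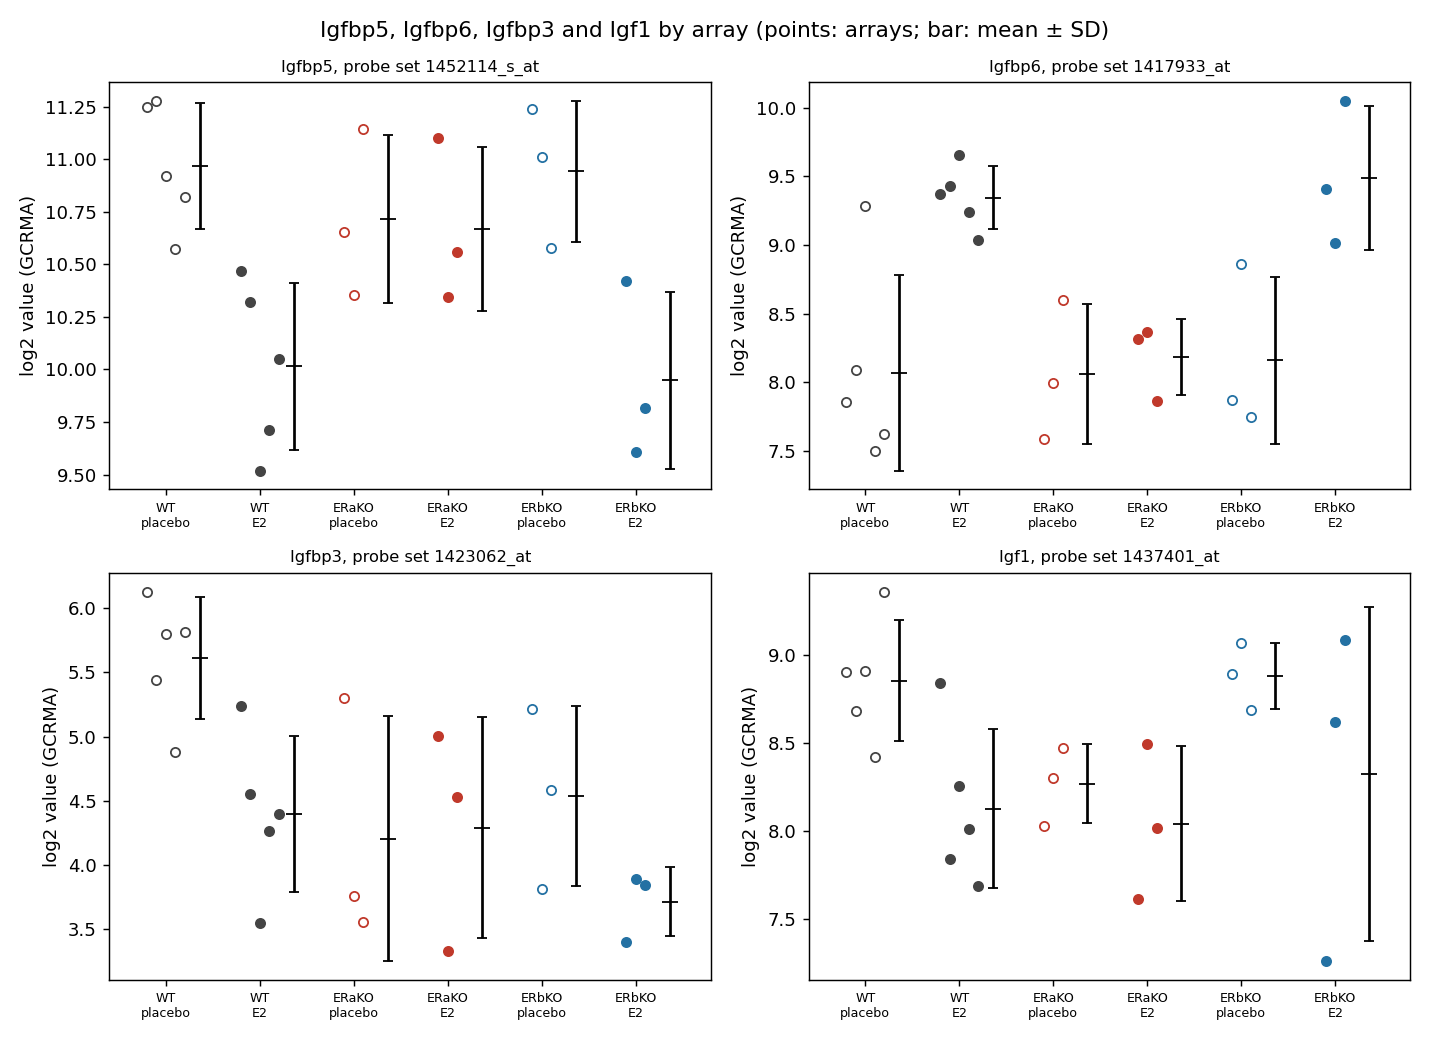
Log2 values (GCRMA, y axes, which do not start at 0) of Igfbp5, Igfbp6, Igfbp3 and Igf1 (1437401_at) on each array in the 6 groups (x axis). Points are arrays, open for placebo and filled for E2, and bars give the mean ± SD. For Igfbp5 and Igfbp6 the E2 and placebo points of ERaKO overlap, while those of ERbKO do not.

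Igfbp3, the main carrier of IGFs in blood, had low levels here, over the minimum on 14 of 22 arrays. Its WT values at 1423062_at were 6.13, 5.44, 5.80, 4.88 and 5.81 with placebo and 5.23, 4.55, 3.55, 4.26 and 4.40 with E2. All but WT E2 replicate 1 lay below the placebo range, and the difference was -1.21 ± 0.39 (limma, unadjusted p = 0.0052, adjusted p = 0.332), and -1.42 without that array (adjusted p = 0.254). Placebo levels were 4.21 ± 0.96 (SD, n = 3) in ERaKO and 4.54 ± 0.70 in ERbKO, under the 5.61 ± 0.48 (n = 5) of WT placebo. Those genotype differences were -1.41 ± 0.44 (adjusted p = 0.955) and -1.08 ± 0.44 (adjusted p = 0.994) in limma, and did not pass.

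Igfbp2, a binding protein that can limit IGF action, had E2 differences of -0.20 ± 0.37 in WT, 0.39 ± 0.48 in ERaKO and -1.38 ± 0.48 in ERbKO (unadjusted p = 0.0094 in ERbKO; limma, adjusted p = 1). The ERbKO placebo values were 5.37, 6.67 and 4.55 and the ERbKO E2 values 4.41, 3.60 and 4.43. They did not overlap, and placebo replicate 2 was the highest Igfbp2 value of all 22 arrays. Igfbp2 levels were low, with a mean of 4.55 and values over the minimum on 16 of the 22 arrays. WT E2 replicate 1 had 5.50 against 3.89 to 4.01 on the other WT E2 arrays, and without it the WT difference was -0.51.

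Igfbp4, which restrains IGF action until it is cleaved, was read by 6 probe sets. Their E2 differences ran from -0.14 to -0.03 in WT, from 0.03 to 0.37 in ERaKO and from -0.07 to 0.21 in ERbKO, with no call. Of the 6, 3 had lower placebo means in ERbKO than in WT at an unadjusted p under 0.05 (-0.65, -0.59 and -0.58; limma, adjusted p = 0.994). Igfbp7, a secreted protein of vessel walls that binds IGFs weakly, gave E2 differences of 0.19 ± 0.22 in WT, 0.34 ± 0.29 in ERaKO and -0.13 ± 0.29 in ERbKO at 1423584_at. WT placebo replicate 4 was low, and without it the WT difference at 1423584_at was -0.05. The second tested probe set, 1423585_at, gave -0.04, 0.45 and -0.36. None of them passed, and the WT groups of each overlapped.

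**Figure D4:**
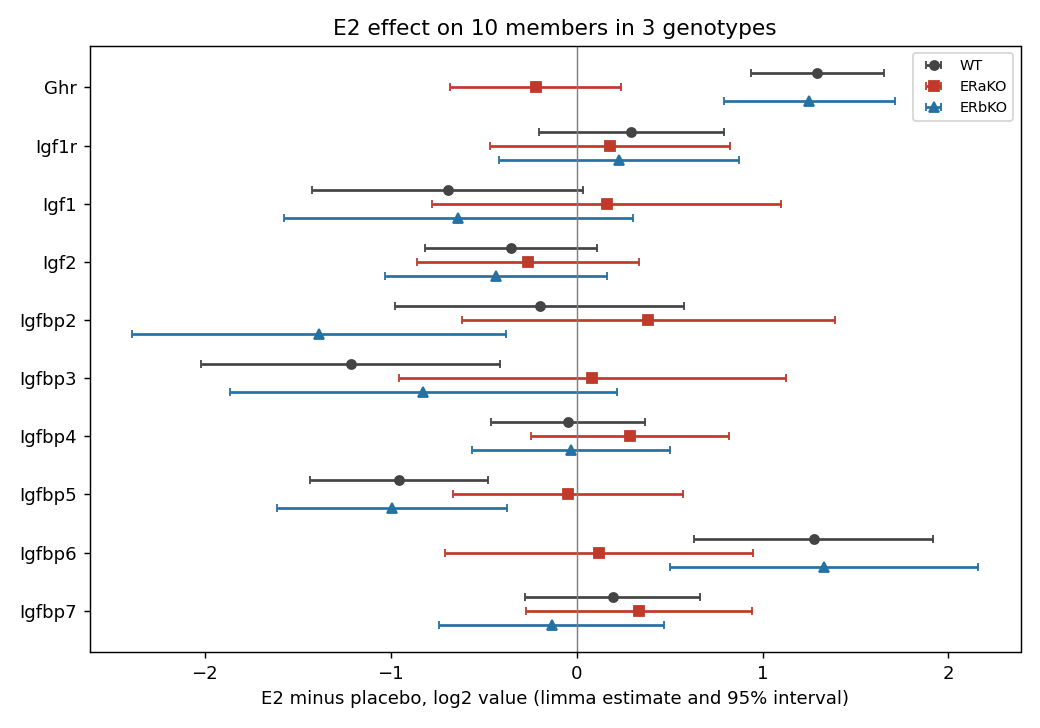
E2 minus placebo (log2 value, x axis) for each of the 10 genes (y axis) at the probe set of highest mean, in WT, ERaKO and ERbKO. Points are limma estimates and bars 95% intervals. Ghr is at 1.29 in WT, 1.25 in ERbKO and -0.22 in ERaKO.

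Counted over the 25 tested member probe sets, E2 raised 2 in WT, both of Ghr, and lowered 0, against 0.387% of all tested probe sets called in limma. At an unadjusted p under 0.05 there were 7, or 28%, against 7.97% of all. With replicate numbers as a block 3 rose, all of Ghr, and 1 fell, Igfbp5 1452114_s_at, against 1.7% of all, which is also a larger share than without the block. In ERaKO 0 were called (all tested probe sets, 0.0049%), also 0 with the block (all, 1.67%), and 1 had an unadjusted p under 0.05, the Ghr probe set 1451501_a_at (all, 6.79%). In ERbKO the same 2 Ghr probe sets rose (all, 0.098%), 6 had an unadjusted p under 0.05 (all, 2.4%), and 3 rose with the block (all, 0.171%). Probe sets of 1 gene read the same RNA, so these counts are not counts of independent events.

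The interaction of ERaKO with WT called 2 members, both of Ghr and lower (all, 0.0686%), or 3 with the block (all, 0.142%), and 5 had an unadjusted p under 0.05 (all, 3.11%). That of ERbKO with WT called 0 (all, 0%), with or without the block, and 0 had an unadjusted p under 0.05 in limma (all, 1.28%). ERaKO against ERbKO called 1 (all, 0.0441%), or 2 with the block (all, 0.0588%), and 6 had an unadjusted p under 0.05 (all, 2.79%). With placebo, ERaKO against WT called 0 members (all, 0.0049%), with 3 at an unadjusted p under 0.05 (all, 3.62%). ERbKO against WT with placebo called 0 (all, 0.0049%), with 5 unadjusted (all, 3.04%). With E2, ERaKO against WT called 2, both of Ghr and lower (all, 0.24%), with 6 unadjusted (all, 7.8%). With the block, which pairs nothing between these groups, it called all 3 of Ghr (all, 0.759%). ERbKO against WT with E2 called 0 (all, 0.0049%), and 0 had an unadjusted p under 0.05 in limma (all, 5.74%).

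Of 62 further genes of growth hormone and IGF signalling, 57 were on the array with a symbol of their own and 43 were tested. In WT, E2 changed 1 of the 43, Stc1, and at an unadjusted p under 0.05 there were 4 higher and 4 lower. Of all tested probe sets 0.387% were called and 7.97% had such an unadjusted p. The median difference of the 43 was 0.01, beside 0.02 for all tested genes. In ERaKO 0 of the 43 were called (all, 0.0049%). Without adjustment 0 had a higher and 3 a lower level (p under 0.05), a share close to the 6.79% of all, and the median was 0.04 beside 0.01. In ERbKO Stc1 alone was called (all, 0.098%), with 3 higher and 0 lower unadjusted (all, 2.4%), and a median of -0.03 beside -0.04. Stc1, a secreted glycoprotein that inhibits the protease PAPP-A, which cleaves IGF binding proteins, rose from 5.05 ± 0.37 (SD) to 7.16 ± 0.35 in WT, by 2.12 ± 0.24 (limma, adjusted p = 9.18e-05). In ERbKO it rose from 4.96 ± 0.20 to 7.50 ± 0.64, by 2.54 ± 0.32 (adjusted p = 4.06e-04). In ERaKO it was 4.96 ± 0.16 with placebo and 4.86 ± 0.54 with E2 (adjusted p = 0.988). Its E2 effect was lower in ERaKO than in WT by 2.22 ± 0.40 (change of -2.22; adjusted p = 0.0392, but 0.0948 with the block) and lower than in ERbKO (change of -2.64; adjusted p = 0.0285, but 0.0879 with the block).

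Among the 10 tested genes of growth hormone receptor signalling none was called. Socs2, a feedback inhibitor of that receptor, was at 8.32 ± 0.40 in WT placebo and 9.60 ± 0.35 in WT E2, a difference of 1.28 ± 0.29 without overlap (limma, adjusted p = 0.0585, and 0.0128 with the block). Its ERbKO difference was 0.89 ± 0.37 (adjusted p = 1) and its ERaKO difference -0.01 ± 0.37. Cish, another SOCS family member induced through Stat5, gave -1.55 ± 0.59 in WT, -1.81 ± 0.76 in ERaKO and -1.45 ± 0.76 in ERbKO, none called (limma, adjusted p from 0.48 to 1). Stat5a itself, a transcription factor downstream of the receptor, gave -1.01 ± 0.42 in ERaKO (adjusted p = 0.661, and 0.0396 with the block) and 0.47 ± 0.32 in WT.

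Of the 24 tested genes of IGF1R signalling none was called. Irs1, the docking protein that links the receptor to PI3 kinase, gave 0.58 ± 0.16 in WT (limma, adjusted p = 0.191, and 0.0235 with the block) and 0.68 ± 0.21 in ERbKO (adjusted p = 0.786). Neither pair of groups overlapped, and in ERaKO the difference was 0.19 ± 0.21. Adam12, a metalloprotease that cleaves Igfbp3 and Igfbp5 in human, gave -0.74 ± 0.31 in ERaKO (adjusted p = 0.662). Gh, Igfbp1, Igfals and the PAPP-A genes Pappa and Pappa2 did not pass the filter.

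Other cell type markers also moved with some of these comparisons. Of 7 endothelial markers 1, Vwf, was called. It rose in WT by 1.93 ± 0.17 (limma, adjusted p = 3.61e-06) and in ERbKO by 1.33 ± 0.23 (adjusted p = 0.0173). Its E2 effect was lower in ERaKO than in WT (change of -2.20, limma, adjusted p = 0.00134). Of all tested probe sets 0.387% were called in WT and 0.098% in ERbKO. With E2, 5 of the 7 endothelial markers were higher and 2 lower in WT, and 4 higher and 3 lower in ERbKO. In ERaKO 0 were higher and 7 lower. The mean level of the 7 was 6.89 in WT placebo and 7.36 in WT E2, 7.17 and 6.71 in ERaKO, and 6.60 and 6.80 in ERbKO. All 5 tested white adipocyte markers were lower with E2 in WT and in ERaKO, and 4 of 5 in ERbKO, none of them called. Of the 6 white adipocyte markers with a symbol of their own, Lep was at background, over the minimum on 0 of 22 arrays with a mean of 2.19. The other 5 were over it on all 22, with means from 7.18 for Retn to 11.96 for Adipoq. Of 5 tested macrophage markers, 5 were higher with E2 in WT, 2 in ERaKO and 4 in ERbKO, and the rest lower. All 5 were lower in either knockout than in WT, with placebo and with E2. Of 7 fibroblast markers, 3 were higher with E2 in WT, 6 in ERaKO and 3 in ERbKO. Of 3 tested mesothelial markers, 1 was higher with E2 in WT and 0 in either knockout. None of these markers was called. The part of cell composition in the Ghr, Igfbp5 and Igfbp6 values was not tested.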

How the data were processed

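Aortic RNA was hybridised to Affymetrix arrays, 1 mouse per array. The authors deposited log2 values made with GCRMA, and a limma table of log2 fold changes with p-values, per the submitters' processing notes and the file headers; versions and a genome build are not given in the sources used here. Differences of group means matched the deposited log2 changes to within 4.98e-08, and a refit without a filter returned the deposited p-values with a largest discrepancy of 4.94e-08, which makes them unadjusted.

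Here a group-means model of the 22 arrays was fitted with limma 3.58.1 in R 4.3.3 to the 20410 probe sets over the filter, Benjamini-Hochberg adjusted in each of 10 comparisons, two-sided, called at 0.05. Array medians were 3.26 to 3.5, and r within a group 0.964 to 0.993. The model was tested on simulated data. Members, gene lists and tests were chosen with earlier results of these data known. All member probe sets were described; of pathway genes, those called in any comparison and the 3 with the smallest p in each E2 comparison; likeness was taken for the 3 members with the smallest p. A gene's representative is its probe set of highest mean.

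The labels give no pairs. Within a genotype, deviations of same-numbered E2 and placebo arrays correlated with r of 0.25 to 0.66 in 11 pairs, the own number being highest in 10, so for E2 comparisons and interactions blocked values are given where they change a call. Between genotypes r was -0.34 to 0.39 in 12 pairs. The alternatives are other filters, normalizations, variance models, array weights, fewer groups, the block, a looser threshold, a mean over probe sets and each array left out.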

Additional observations from a re-analysis of the deposited data

Results flagged for a closer look

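For Ghr, 3 differences in the E2 effect between genotypes passed the interaction test in limma: -1.51 for ERaKO minus WT at 1417962_s_at (adjusted p = 0.0423), -2.13 for ERaKO minus WT at 1451501_a_at (adjusted p = 0.00924) and -2.11 for ERaKO minus ERbKO at 1451501_a_at (adjusted p = 0.0338). All 3 use the same ERaKO arrays, and the first and the second also share their WT arrays.

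In the WT groups of 5 arrays, 11 of 50 group and probe set combinations had 1 array far from the other 4, where chance gives about 1 in 20 and where probe sets of 1 gene are not independent. WT E2 replicate 1, the array with the high Alb value, was high for Igf1 1452014_a_at at 7.60 (the others 5.35 to 5.69) and for Igfbp2 at 5.50 (3.89 to 4.01). WT placebo replicate 4 was low for Igfbp7 at 12.18 (1423584_at; others 13.36 to 13.53) and 7.76 (1423585_at; others 8.68 to 8.96). The same array was low for Igfbp4 at 10.91 (1423756_s_at; others 11.55 to 11.82) and 8.41 (1423757_x_at; others 9.10 to 9.37), and for Igf1r 1428967_at at 4.50 (others 5.40 to 5.53). Single arrays also stood off for Igf1r 1428967_at in WT E2 replicate 5 (4.75), Igf1r 1446303_at in WT E2 replicate 4 (6.34), Igf2 1448152_at in WT E2 replicate 3 (4.30) and Igfbp4 1421991_a_at in WT placebo replicate 1 (6.97). None of these values belongs to a called change, and their cause was not tested.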

How the results depend on the processing

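Of 120 single values followed, no called value changed sign under any alternative, and 44 uncalled values did under some. The counts of called members are 2 for E2 in WT, 2 for E2 in ERbKO, 2 for ERaKO minus WT, 1 for ERaKO minus ERbKO and 2 for ERaKO against WT with E2. Without a low-value filter they were 1 for ERbKO, 1 for ERaKO minus WT and 0 for ERaKO minus ERbKO. With array weights they were 4 for WT, 5 for ERbKO and 1 for ERaKO minus WT. With only the groups compared in the fit, which leaves fewer arrays, they were 1 for WT, 0 for ERbKO, 1 for ERaKO minus WT, 0 for ERaKO minus ERbKO and 1 for ERaKO against WT with E2. At an adjusted p under 0.10 WT had 5. With the replicate block WT had 4, ERaKO minus ERbKO 2, and ERaKO against WT with E2 had 3, Ghr 1451871_a_at being added (adjusted p = 2.52e-04), a comparison in which the numbers pair nothing. Beyond that and the calls given with the block in the text, it changed no other call of a member. Leaving out 1 array at a time gave 2 to 3 for WT, 0 to 2 for ERbKO, 0 to 2 for ERaKO minus WT, 0 to 1 for ERaKO minus ERbKO and 2 to 3 for ERaKO against WT with E2. An alternative chosen after seeing the data left out the 6 arrays with an Alb value over 4. It gave 0 for all 5 comparisons, while the Ghr changes at 1417962_s_at and 1451501_a_at were 1.36 and 1.51 in WT (adjusted p = 0.0647 and 0.125) and 1.25 and 1.42 in ERbKO (0.104 and 0.216). The lost differences were -1.61 and -2.30 for ERaKO minus WT and -2.21 at 1451501_a_at for ERaKO minus ERbKO. They were -1.56 and -1.94 for ERaKO against WT with E2. That alternative leaves 16 arrays. It takes out 3 of the 5 WT E2, 1 of the 3 ERaKO placebo and 2 of the 3 ERaKO E2 arrays. ERaKO E2 is then replicate 3 alone, so the differences with ERaKO rest on that array. Over all settings other than single arrays left out, the adjusted p of these changes ran from 6.46e-05 to 0.0647 and from 1.38e-05 to 0.125 in WT, and from 5.69e-05 to 0.112 and from 6.97e-05 to 0.234 in ERbKO. Other causes of these shifts were not tested. Quantile normalization, median centring, the stricter filter and the robust variance model kept all these counts within 1.5 times.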
